A study of Mus musculus with 4 samples.

Results

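The regions described here are the intron peaks of transketolase chromatin immunoprecipitation with sequencing (ChIP-seq) that lie in genes of at least 500 kb. A peak was taken once, by the first transcript the authors listed for it. It was kept when they classed it as an intron peak and when the start and end sites of that transcript lay 500 kb or more apart. The rule used the annotation alone and no measured value. It gave 893 of 18267 control peaks, 4.89% (95% Wilson interval 4.59 to 5.21), and 1527 of 30791 induced peaks, 4.96% (4.72 to 5.21), or 2420 of 49058 in all. They made up 14.3% of the control and 16.1% of the induced intron peaks.

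The tissue was retina of Tet-opsin-VEGFA mice, named for opsin, the visual pigment of photoreceptors, and VEGFA, a growth factor of blood vessels, and described in the series text as a model of age-related macular degeneration that overexpresses VEGF. The control group was noninduced Tet-opsin-VEGFA and the induced group was induced Tet-opsin-VEGFA, so that both carried the transgene. Of each group 2 retinas were collected, and each group had 1 ChIP library, made with a transketolase antibody after methanol crosslinking, and 1 input library. The age and sex of the animals and the inducing agent were not given in the labels. DNA carries no marker levels, so the labelled tissue could not be checked. With 1 ChIP library per group there is no replicate error and no test between groups, and every interval below covers counting error only.

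Transketolase is an enzyme of the nonoxidative branch of the pentose phosphate pathway, where it moves carbon units between sugar phosphates. It is known as a cytosolic enzyme, and it has also been found in the nucleus. Genes of this length are few, and their length lies almost wholly in introns. Many encode adhesion molecules, receptors, channels and scaffolds of synapses, and several are known as common fragile sites, regions that break under replication stress. Pseudogenes are copies of genes that have lost their function, and such copies can lie inside introns of other genes.

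Of the 2420 intron peaks, 1 overlapped a start-site window of another gene, and its sequence is shown because no sequence was at hand for the other peaks. The window belongs to Gm52177, a long noncoding RNA gene inside Ctnnd2, which encodes delta-catenin. It runs from 250 bases before to 50 bases after the start site (chr15:30932817-30933116, minus strand, GRCm38.p6, RefSeq). The letters in capitals are the 241 of its 300 bases that lie under the induced peak.
Gm52177: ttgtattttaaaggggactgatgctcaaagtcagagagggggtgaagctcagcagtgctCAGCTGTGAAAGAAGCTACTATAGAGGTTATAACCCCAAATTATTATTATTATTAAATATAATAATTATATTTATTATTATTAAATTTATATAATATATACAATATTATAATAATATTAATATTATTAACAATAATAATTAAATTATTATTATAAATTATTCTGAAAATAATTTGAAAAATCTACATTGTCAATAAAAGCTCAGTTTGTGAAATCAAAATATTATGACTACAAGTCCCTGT
With 18 tags at 12.89-fold, that peak (chromosome 15, 30932289 to 30933057, mm10) lay 760 kb into Ctnnd2. The window is rich in A and T, with 22.7% G and C. No control intron peak of a long gene touched any of the 32851 start-site windows. Over all peaks 3.03% (control) and 1.33% (induced) did, but the rule leaves out peaks classed as promoter or exon, so nothing is read from the difference. None of the 2420 peaks overlapped any of the 1005 annotated microRNA hairpins.

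The 7 strongest induced intron peaks of long genes overlapped annotated pseudogenes, and the next 2, in Tmem132d and Kalrn, did not. Pde4d, a phosphodiesterase that degrades cyclic AMP, had the highest, with 251 tags at 227.64-fold (chromosome 13, 108670646 to 108671403, mm10). It lay 16.8 kb from the Pde4d start site and wholly inside the pseudogene Rps3a3 (108670580 to 108671443). Tags are the ChIP reads counted in a peak. Fold is the authors' enrichment over a background, whose estimate the sources used here do not explain, and it serves only to rank peaks within a list.

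Lrp1b, a receptor of the low density lipoprotein receptor family, held a peak of 236 tags at 152.72-fold inside the pseudogene Gm13461 (peak at chromosome 2, 41987316 to 41988002). The Enox1 peak over Gm10132 held 141 tags at 144.96-fold. The Thsd7b peak, over Rpl31-ps9, held 120 tags at 124.56-fold. These genes lie on different chromosomes, and each peak overlapped a pseudogene.

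Naaladl2 held 241 tags at 122.85-fold over Gm7536. In the zinc finger gene Zfp804b, 189 tags at 100.94-fold lay over Tubb4b-ps1. In Kcnq5, a voltage-gated potassium channel gene, a peak over Gm7658 held 196 tags at 97.71-fold. The symbols Rps3a3, Rpl31-ps9 and Tubb4b-ps1 name copies of ribosomal protein and tubulin genes.

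A threshold of 20-fold was passed by 18 induced intron peaks of long genes, in 16 genes, or 1.18% (0.747 to 1.86). Over all induced peaks the share was 3.48%, over all induced intron peaks 1.82%, and over intron peaks of genes under 50 kb 2.90% (2.26 to 3.71). Of the 18, 15 overlapped an annotated pseudogene, and a median of 99.8% of the peak lay inside it. Among all induced peaks of at least 20-fold that share was 63.0%. Among induced intron peaks at that level, 38 of 60 overlapped one in genes under 50 kb and 33 of 35 at 50 to 100 kb. At 100 to 200 kb it was 34 of 38, and at 200 to 500 kb 15 of 22, so such overlap was not particular to long genes. The 18 peaks held 1885 tags, 9.76% of the tags in induced intron peaks of long genes.

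The other 3 of the 18 lay off annotated pseudogenes. Tmem132d, a transmembrane protein gene, held 79 tags at 80.53-fold (chromosome 5, 127954956 to 127955783), 1172 kb from the nearest annotated pseudogene. Kalrn, which encodes an exchange factor for small GTPases, held 92 tags at 69.8-fold (chromosome 16, 34006789 to 34007815), 182 kb from the nearest one. Sntg1, a syntrophin of the dystrophin complex, held 25 tags at 24.7-fold, 23.7 kb from Gm15452. Gm15452 itself lay under another Sntg1 peak, of 26 tags at 27.92-fold.

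The remaining strong peaks spanned 22.4-fold to 51.54-fold. They lay over pseudogenes in Lrba, a gene of vesicle trafficking (51.54-fold, 60 tags), Mctp1 (45.1-fold, 51 tags), Stpg2 (37.58-fold, 50 tags), Iqcm and Hs6st3, among others. Iqcm held 41 tags at 29.94-fold and 37 tags at 22.4-fold, in separate peaks over the same pseudogene, Gm7901. Hs6st3, a sulfotransferase of heparan sulfate, held 26 tags at 23.62-fold over Gm6087.

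Annotated pseudogenes lay under 21 induced intron peaks of long genes, 1.38% (0.901 to 2.09). The share was 2.94% of all induced intron peaks and 4.87% of all induced peaks. The 6 such peaks under 20-fold, in Mast4, Plcb1, Rarb, Csmd1, Ptprn2 and Alk, stood between 7.9-fold and 19.33-fold. In the control list pseudogenes lay under 5 intron peaks of long genes, 0.560% (0.239 to 1.30), against 1.01% of all control intron peaks and 1.62% of all control peaks. These were in Naaladl2, Immp2l, L3mbtl4, Kcnq5 and Lrp1b, at 13.42-fold, 8.31-fold, 7.33-fold, 5.86-fold and 4.38-fold.

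**Figure D1:**
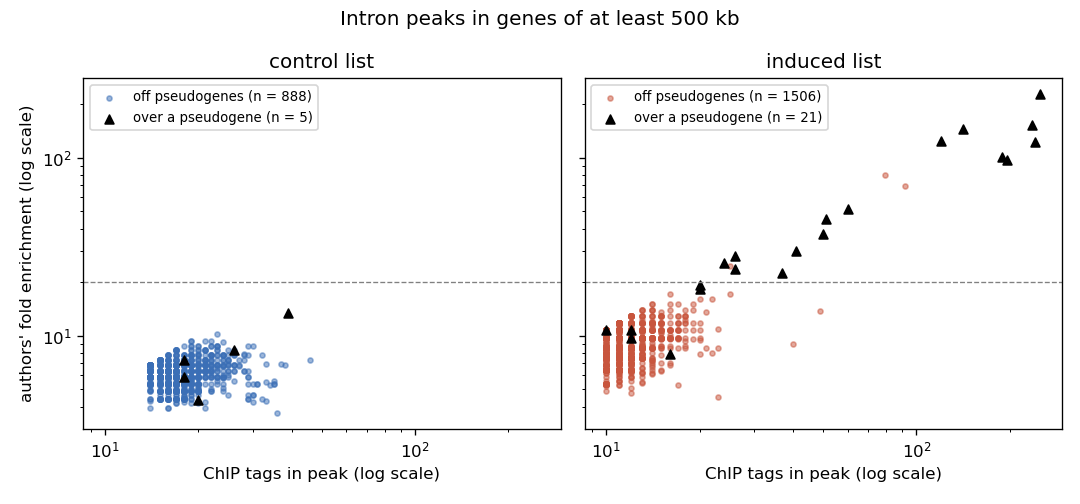
ChIP tags in each intron peak of a gene of at least 500 kb (horizontal, log scale) against the authors' fold enrichment (vertical, log scale), for the control and the induced list, with triangles for peaks over an annotated pseudogene and a dashed line at 20-fold. All control peaks lie at or below 13.42-fold, and 15 of the 18 induced peaks above the line are triangles.

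Control intron peaks of long genes were all weak, from 3.7-fold to 13.42-fold. None reached 20-fold, a level reached by 1 control peak in all, 0.00547%. Naaladl2 led with 39 tags at 13.42-fold (chromosome 3, 24332734 to 24333658), at the position of its strong induced peak. Sema6d, a semaphorin of axon guidance, followed with 23 tags at 10.26-fold. Rarb, a retinoic acid receptor (22 tags), the adhesion molecule Lsamp (21 tags), the catenin Ctnna3 (19 tags) and the delta glutamate receptor Grid1 (19 tags) stood at 9.29-fold each. Lrba stood at 9.26-fold with 24 tags, at another position than its strong induced peak. Nrxn3 (30 tags), a presynaptic neurexin, the nuclear receptor Esrrg (29 tags) and Erc2 (23 tags), a protein of the presynaptic active zone, stood at 8.80-fold each.

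Most peaks in both lists lay near the lowest tag count listed, which was 14 for control and 10 for induced peaks. Intron peaks of long genes had medians of 17 tags, 5.86-fold and 700 bp (control) and of 11 tags, 8.59-fold and 547 bp (induced). The medians over all peaks were 18 tags, 5.86-fold and 712 bp, and 11 tags, 8.59-fold and 551 bp. Within 4 tags of the lowest count lay 63.8% of the control and 91.0% of the induced intron peaks of long genes. At this tag depth a single peak rests on few tags, and the total depth of the libraries is unknown. At 10-fold and above stood 371 of 1527 induced intron peaks of long genes, against 8311 of 30791 induced peaks in all, 27.0%.

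Most long genes held such a peak. Of 230 RefSeq genes spanning at least 500 kb, 72.6% (control) and 81.7% (induced) held such an intron peak, against 5.13% and 7.89% of 21001 genes under 50 kb with an intron peak. These shares are per gene, and a longer gene has more sequence in which a peak can lie, so nothing is read from the difference. By the symbols in the sheets, 168 genes held a control peak of this kind, 188 an induced one and 162 both, which is 96.4% of the control and 86.2% of the induced genes.

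Set against length, peaks were sparser in long genes than in short ones. Counted by the position of the centre on the autosomes, whatever class the authors gave, genes of at least 500 kb held 6.71 control peaks per Mb (95% Poisson interval 6.34 to 7.10) and 11.002 induced peaks per Mb (10.5 to 11.5). Genes under 50 kb held 10.9 (10.5 to 11.3) and 17.6 (17.1 to 18.1). The densities were 10.6 and 14.9 per Mb at 50 to 100 kb, 9.92 and 13.4 at 100 to 200 kb, and 8.06 and 12.6 at 200 to 500 kb. Up to the class of 500 kb and over, each longer class had a lower density in both lists. Within that class, genes of at least 1 Mb stood at 6.30 control (5.75 to 6.90) and 11.1 induced peaks per Mb (10.4 to 11.9), and those of 500 kb to 1 Mb at 6.99 (6.50 to 7.51) and 10.9 (10.3 to 11.6). Outside genes the densities were 6.06 (5.93 to 6.19) and 11.2 (11.01 to 11.36), and over all autosomes 7.43 and 12.4.

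For intron peaks alone, taken by the authors' assignment and with chromosomes X and Y included, the order depended on the count. By assignment, peaks were counted by the length of the listed transcript, but spans were taken by that of the RefSeq gene. The spans of long genes thus included 37 genes with no such intron peak, of which 33 held a peak of some class by position. Peaks inside long genes could therefore be left out of their density by assignment. Genes of at least 500 kb had 4.63 control peaks per Mb (4.33 to 4.94) and 7.92 induced ones (7.52 to 8.32), and genes under 50 kb had 4.67 (4.42 to 4.93) and 7.45 (7.14 to 7.78). The ratios were 0.992 (0.911 to 1.08) and 1.06 (0.994 to 1.13), and 0.540 and 0.571 among peaks with a −log10 p of at least 10. Intron-class peaks counted by position on the autosomes were denser in long genes than in genes under 50 kb, at 5.51 against 4.58 per Mb (control) and 9.26 against 7.27 (induced). The classes between stood above the long genes. Their control densities were 7.07 per Mb at 50 to 100 kb, 7.08 at 100 to 200 kb and 6.32 at 200 to 500 kb. The induced ones were 9.51, 9.51 and 10.2 in the same order. Promoter and exon peaks, counted by position, stood at 3.76 and 5.79 per Mb in genes under 50 kb and at 0.192 and 0.186 per Mb in genes of at least 500 kb. By position and over any class, again with chromosomes X and Y included, long genes stood at 0.606 and 0.614 times the density of short ones.

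**Figure D2:**
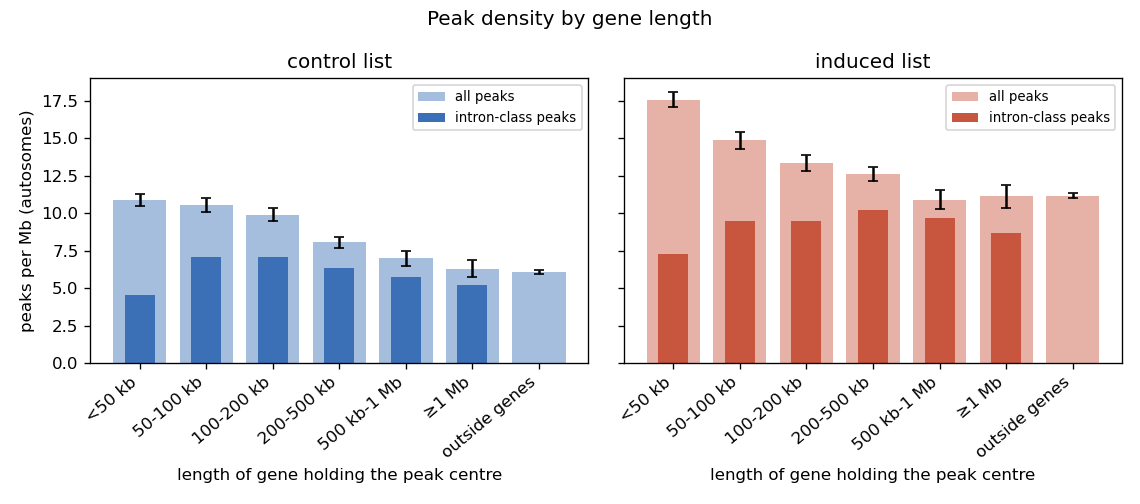
Peaks per Mb of autosomal gene length (vertical) by the length of the gene that holds the peak centre, and outside genes (horizontal), for the control and the induced list, with 95% Poisson intervals on all peaks (pale bars) and intron-class peaks as dark bars. The pale bars stand at 10.9 and 6.30 per Mb (control) and at 17.6 and 11.1 per Mb (induced) for genes under 50 kb and for those of at least 1 Mb, in that order.

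Cadm2 and Dlg2 held the most intron peaks over both lists, 35 each. Cadm2, a synaptic adhesion molecule of the immunoglobulin family (chromosome 16, 66655416 to 67620917, 966 kb), held 21 control and 14 induced peaks. That is 21.8 per Mb (13.5 to 33.2) and 14.5 per Mb (7.93 to 24.3), against 4.63 and 7.92 over all the long genes. Counted by position over any class, Cadm2 had the highest control density of the 219 autosomal long genes, 22.8 per Mb. Dlg2, a scaffold of the postsynaptic density (chromosome 7, 90476188 to 92449246, 1973 kb), held 16 and 19 peaks.

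Ccser1 held 13 control and 21 induced peaks. Dcc, the receptor of the guidance factor netrin, held 12 and 22 over 1098 kb, which is 10.9 per Mb (5.65 to 19.1) and 20.04 per Mb (12.6 to 30.3). Cntnap2, a neurexin-like adhesion molecule of axons, held 13 and 20 over 2241 kb. Its densities, 5.80 and 8.92 per Mb, were near those over all the long genes although its counts were among the highest.

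Lrp1b held 10 control and 22 induced peaks, and Ptprd, a receptor tyrosine phosphatase of synapses, 7 and 22. Magi2, a scaffold with PDZ domains, held 17 and 15, and Lsamp 16 and 13. For each of these genes with most intron peaks, the intervals of the control and induced densities overlapped. They did so by least in Ptprd, at 3.08 per Mb (1.24 to 6.35) and 9.69 per Mb (6.07 to 14.7). Other long genes had intervals that did not overlap, such as Sntg1 (1 control and 17 induced peaks) and Macrod2 (9 and 0). By position over any class, Sntg1 again held 1 and 17. Macrod2 held 10 and 39, the opposite direction, because its induced peaks were assigned otherwise, as described below. The lists were called separately, with library depths unknown, so their counts were not compared as binding.

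Across the 219 autosomal long genes, gene length and the number of peaks inside had a Spearman correlation of 0.49 for control peaks and 0.65 for induced peaks. The densities of the lists had one of 0.31 across the same genes. Genes share their libraries and are not replicates, so these are descriptions. Density was higher for induced peaks in 168 genes, lower in 34 and equal in 17. The median gene held 5.79 control peaks per Mb (quartiles 3.92 and 8.71) and 10.8 induced peaks per Mb (7.67 and 13.9). The highest induced density was that of Rabgap1l, at 22.6 per Mb. Dab1, an adaptor of reelin signalling, held 0 control and 6 induced peaks, and Sorcs1, a sorting receptor, 1 and 0. Rabgap1l, Dab1 and Sorcs1 were chosen after their values were seen.

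**Figure D3:**
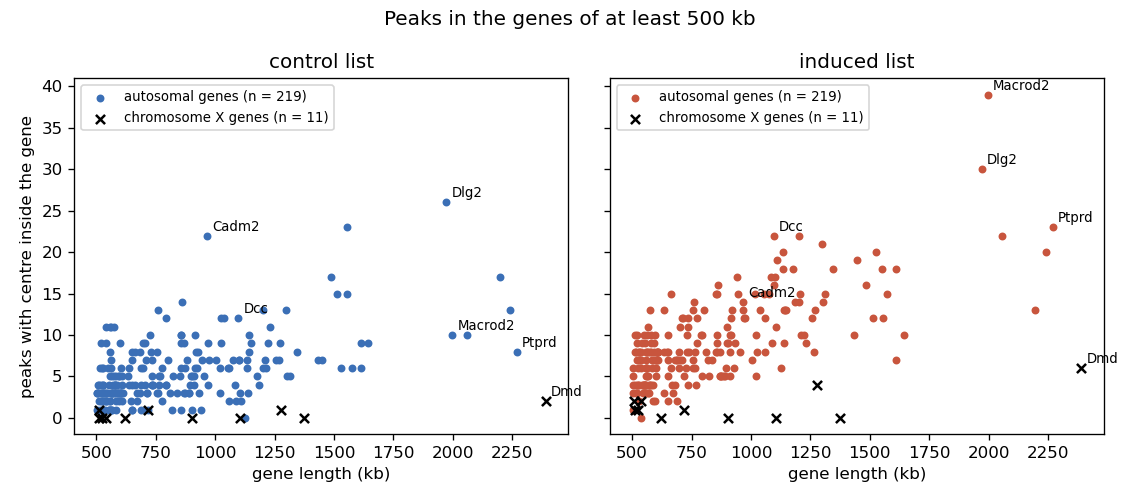
Number of peaks whose centre lies inside each gene of at least 500 kb (vertical) against gene length in kb (horizontal), for the control and the induced list, with crosses for chromosome X. Counts rise with length, to 26 control peaks in Dlg2 and 39 induced peaks in Macrod2, while Dmd, the longest gene at 2390 kb, holds 2 and 6.

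Long genes of chromosome X held few peaks. They gave 2 control intron peaks, 0.191 per Mb (0.0231 to 0.690), and 13 induced ones, 1.24 per Mb (0.661 to 2.12). Autosomal long genes gave 4.88 (4.57 to 5.22) and 8.30 (7.89 to 8.73) per Mb. Over all classes, 18151 of 18267 control and 30325 of 30791 induced peaks lay outside chromosomes X and Y. Low counts there were thus not particular to long genes. Dmd, the dystrophin gene, held 0 control and 5 induced intron peaks. Il1rapl1, Frmpd4, Tenm1 and Pcdh11x, all on chromosome X, held no peak of any class in either list. The sex of the animals is unknown, and copy number and binding cannot be told apart here.

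The authors' sheets could assign peaks inside a gene to different transcripts in the 2 lists. Macrod2, a gene of ADP-ribose metabolism, had 9 control and 0 induced intron peaks by the rule. By position, 39 induced peaks lay inside it, and 29 of these were classed as intergenic and assigned to Flrt3, an adhesion gene nested in Macrod2. Grm8, a metabotropic glutamate receptor gene, had 0 control and 16 induced intron peaks, and 14 control peaks inside it were assigned to the microRNA gene Mir592 as intergenic. Rbfox1, an RNA-binding splicing factor gene, had 0 and 12, with 6 control and 20 induced peaks inside it by position. Macrod2 was chosen after its values were seen.

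Of the 5 RefSeq long genes with intron peaks in the control list alone, 4 held an induced peak by position, and of the 26 with them in the induced list alone, 24 held a control peak. Of the 230 genes, 37 had no such intron peak in either list, and 33 of these held a peak by position. The longest of the 37 were Il1rapl1, Tenm3 (13 control and 21 induced peaks by position), Cdh12 (9 and 13), Nrg3 (2 and 19) and Frmpd4. Tenm3 encodes a teneurin, Cdh12 a cadherin and Nrg3 a neuregulin.

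Genes grouped by role were compared by position over any class, and their order differed by assigned intron peaks. Over all 219 autosomal long genes the densities by position were 6.71 control and 11.002 induced peaks per Mb, and over the 82 in none of the groups 7.17 (6.48 to 7.92) and 11.4 (10.5 to 12.3). Group values ran from 4.85 to 9.98 for control and from 9.51 to 12.6 for induced peaks, leaving out the GABA and glycine receptors, where Gabrg3 was the only long gene (2 control and 3 induced peaks). By assigned intron peaks, with chromosome X included, the highest control densities were those of synaptic scaffold genes (6.21) and retinal genes (6.18), and the lowest those of transcription (2.90), GABA and glycine receptor (2.98) and cytoskeleton genes (2.99). These are descriptions, 13 groups were looked at, and groups share genes such as Nrxn3 and Dlg2.

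Neurexins and their relatives (7 autosomal long genes) stood at 5.68 control peaks per Mb (4.16 to 7.58) and 9.51 induced peaks per Mb (7.51 to 11.9), the order kept for the groups below. All 7 held intron peaks in both lists. Here and for the groups below, counts for single genes are assigned intron peaks unless given as by position. Nrxn3 held 8 and 16, Cntnap5c 8 and 8, and Cntnap5a 5 and 8. Adhesion molecules of the immunoglobulin family and receptor phosphatases (16 genes) stood at 6.91 (5.70 to 8.30) and 10.5 (8.98 to 12.2), and Cntn5, a contactin, held 9 and 12.

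Cadherins and protocadherins (6 genes) stood at 8.59 (6.45 to 11.2) and 10.2 (7.84 to 12.997). Pcdh15, a cadherin of hair cells and photoreceptors, held 10 control and 9 induced intron peaks, and 23 and 18 peaks by position. Cdh13 held 2 and 13, Pcdh9 7 and 5, and Fat3 3 and 8. Teneurins, latrophilins and guidance receptors (12 genes) stood at 7.39 (5.89 to 9.17) and 10.2 (8.46 to 12.3). Robo2, the receptor of Slit proteins, held 15 and 7, Tenm2 10 and 6, and the ephrin receptor gene Epha6 2 and 10. By position Robo2 held 15 and 12, Tenm2 11 and 9, and Epha6 4 and 12.

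Glutamate receptors (6 genes) stood at 7.44 (5.29 to 10.2) and 12.6 (9.74 to 16.0). Grm7, a presynaptic metabotropic receptor, held 6 and 13, and the kainate receptor gene Grik2 6 and 6. Ion channels and their subunits (14 genes) stood at 4.85 (3.68 to 6.29) and 11.4 (9.56 to 13.5), with the control interval below that of all autosomal long genes (6.34 to 7.10). By assigned intron peaks it overlapped theirs, at 3.58 (2.58 to 4.83). In this group Nkain2 held 7 and 15 and Dpp6 5 and 10. Dpp10 held 7 and 7, or 15 and 12 by position, and the calcium-activated potassium channel gene Kcnma1 2 and 12. More induced than control peaks lay in 13 of these 14 genes by position, against 168 of 219 overall.

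Cyclic nucleotide and kinase signalling genes (13) stood at 5.41 (4.12 to 6.98) and 12.5 (10.5 to 14.8). Erbb4, the neuregulin receptor, held 7 and 15, Pde4d 5 and 14, the cyclic GMP-dependent kinase gene Prkg1 5 and 13, and Alk 4 and 12. Scaffold and release genes of the synapse (17) stood at 8.11 (6.74 to 9.67) and 12.2 (10.5 to 14.04), with Anks1b and Lrrc4c at 5 and 15 each. Cytoskeleton and dystrophin complex genes (18) stood at 5.15 (4.10 to 6.39) and 9.80 (8.32 to 11.5). Ctnna2, a neuronal catenin, held 7 and 15, Sgcz, a sarcoglycan, 8 and 13, and Ctnna3 4 and 12. Camta1, a calmodulin-binding transcription activator that was listed in this group by mistake and is counted in its density, held 7 and 11.

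Transcription and RNA-binding regulators (15) stood at 6.41 (5.02 to 8.06) and 11.1 (9.21 to 13.2), with Celf2 at 9 and 13, Auts2 at 3 and 11 and Esrrg at 3 and 8. Genes of common fragile sites (21) stood at 6.63 (5.73 to 7.63) and 9.89 (8.78 to 11.1). Genes of retinal function and disease (7) stood at 9.98 (7.67 to 12.8) and 11.4 (8.92 to 14.4). Their control interval lay above that of all autosomal long genes by this count, and their induced interval held the value over all of them. Pcdh15, also in the cadherin group, held 23 of the 63 control peaks of the retinal genes by position. By assigned intron peaks the control intervals overlapped, at 6.18 (4.39 to 8.44) for retinal genes and 4.62 (4.33 to 4.94) for all long genes. Adgrv1, an adhesion receptor gene, held 8 and 7 intron peaks.

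**Figure D4:**
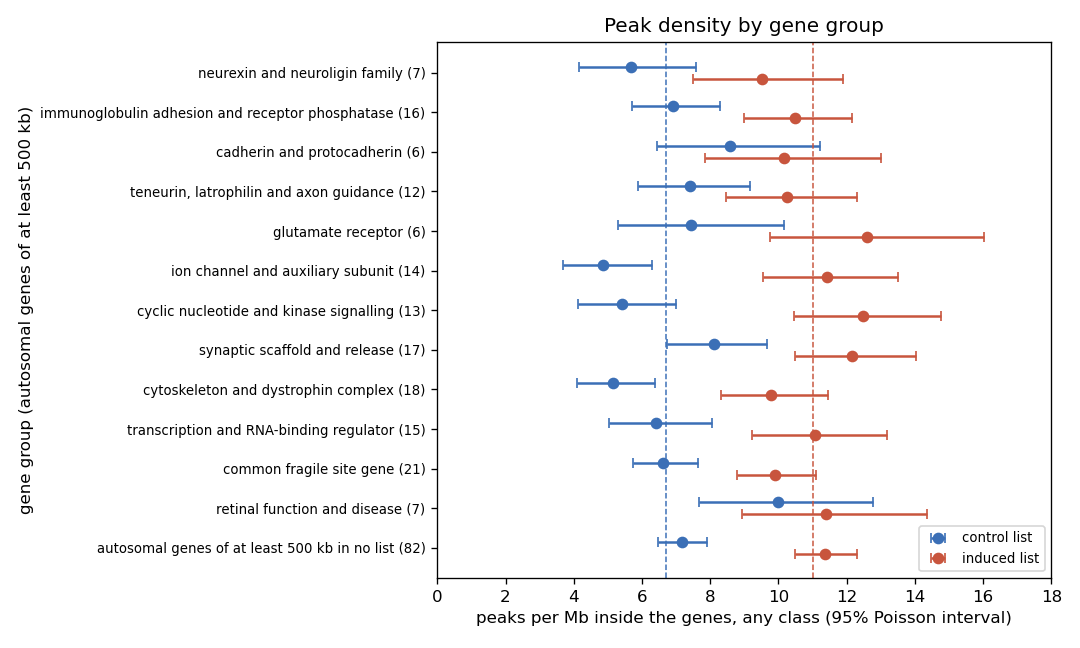
Peaks per Mb inside autosomal genes of at least 500 kb, any class, with 95% Poisson intervals (horizontal), for each gene group with its number of genes (vertical), in the control (blue) and the induced (red) list, with dashed lines at the value over all 219 genes. The groups drawn, which leave out GABA and glycine receptors with their single gene, lie between 4.85 and 9.98 per Mb (control) and between 9.51 and 12.6 per Mb (induced).

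Along the genes the peaks lay from start to end. Of control intron peaks of long genes, 51.8% (48.6 to 55.1) lay nearer the start than the end site, and of induced ones 54.4% (51.9 to 56.9). These intervals overlapped, so the lists were not told apart by this share. With each gene divided into 10 equal bins, the counts per bin ran from 78 to 110 for control and from 108 to 178 for induced peaks. The bin at the start site held the most control peaks, and the next one the most induced peaks. The median distance from the start site was 383 kb in both lists, and the nearest peaks lay 4.26 kb (control) and 2.72 kb (induced) from it.

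Few of these positions were peaks in both lists. Overlap of at least 1 bp with an induced peak was found for 23 of 893 control intron peaks of long genes, 2.58% (1.72 to 3.84), against 2.73% of all control peaks and 2.51% of control intron peaks. From the induced side it was 25 of 1527, 1.64% (1.11 to 2.41), against 1.63% of all induced and 1.70% of induced intron peaks. These shares were near the background. The 23 pairs lay in 22 genes. Within a shared gene, the median control peak lay 29.98 kb from the nearest induced one (quartiles 11.1 and 60.1 kb).

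Of the 23 pairs, 3 lay over pseudogenes and were strong in the induced list. Naaladl2 had 39 control and 241 induced tags, Kcnq5 18 and 196, and Lrp1b 20 and 236. The centres of the Lrp1b pair lay 2 bp apart. The induced tag count was higher in each of the 3, but the depths of the libraries are unknown and no ratio between them is given.

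The other 20 pairs were weak. Gpc5, a glypican, had 37 control tags at 6.94-fold and 21 induced tags at 13.65-fold (chromosome 14, 115207554 to 115208663 in the control list). Agbl1 had 22 control tags at 8.80-fold and 11 induced tags at 11.81-fold, with centres 23 bp apart. Cntnap5b had 17 control and 49 induced tags, and Cntnap5c 32 and 40. These relatives of Cntnap2 had the highest induced tag counts among the pairs outside pseudogenes.

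Pard3, a gene of cell polarity, held 2 pairs, of 19 control and 10 induced tags and of 21 and 12. Other pairs were in Anks1b, Nbea, Dpp6, Dcc, Thsd7b, Prkg1, Dgkb, A830018L16Rik, Galnt13, Exoc4, Lrrc4c, Adarb2 and Cntn4. In 14 of all 23 pairs the induced peak held 10 or 11 tags, at or next to the lowest count listed.

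The length rule cut through a continuous range. Just inside it lay Edil3 (502 kb, 3 control and 4 induced intron peaks), Dock1 (503 kb, 0 and 1), Car10 (503 kb, 3 and 3), Stpg2 (504 kb, 4 and 5), L3mbtl4 (506 kb, 4 and 4) and Arhgap6 (509 kb, 1 and 2). Just outside it lay Lrrc7 (495 kb, 0 and 3), Ank3 (494 kb, 4 and 3), Abca13 (492 kb, 3 and 3), Dnm3 (491 kb, 6 and 6), Prkce (490 kb, 4 and 0) and Unc13c (490 kb, 3 and 7).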

How the data were processed

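ChIP and input libraries came from retina of noninduced and induced mice, 1 of each per group. Reads were aligned with Bowtie2 2.2.7 to mm10 (GRCm38), per the submitters' processing notes. Which peak caller made the lists is not given in the sources used here. Per peak, the authors deposited whole tag counts of the ChIP library without normalization, a fold ratio over a background, a score of 10 times the −log10 p-value (given here as −log10 p) and a false discovery rate in percent, per the file headers. Each list set a ChIP library against the input of its own group, per the sheet names. Total depth was unknown, since only tags in peaks were given. The authors annotated peaks to RefSeq transcripts. Another 3 sheets, without values, were left out.

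Peaks were counted once. Gene spans, pseudogenes and start-site windows came from RefSeq tables of GRCm38.p6, and 100% of the listed transcripts of these peaks were found there. Density used merged spans of genes with a curated transcript (NM or NR). Overlaps used bedtools 2.31.1. Shares have 95% Wilson and densities exact 95% Poisson intervals. Tables were handled with pandas 2.3.3 and numpy 2.4.6 in Python 3.11.15, intervals with scipy 1.17.1 and plots with matplotlib 3.10.9. Counting and overlap were checked on simulated peaks. The members, the 13 gene groups and the comparisons were chosen with earlier results of these data known. Named genes were those with most peaks, of highest fold, shared between the lists, leading each group, longest with or without such a peak, or nearest the length rule. Values of some genes that met this rule are not reported here.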

Additional observations from a re-analysis of the deposited data

How the results depend on the processing

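No paired analysis was possible because each group had 1 ChIP library, and for the same reason no replicate could be left out. At a −log10 p of at least 10, 3 control and 42 induced intron peaks of long genes were left. Their shares of the lists were 1.96% and 2.25%. The ratios of intron peak density between long and short genes were 0.540 (0.156 to 1.88) and 0.571 (0.400 to 0.815). The genes were 3, 37 and 1 in both, the overlapping control peaks 1, and the control share in the part nearer the start site 100%. The construction leaves fewer peaks. With genes of at least 400 kb the shares were 6.53% and 6.77%, the genes 262, 300 and 250 in both, and the overlapping control peaks 35. With genes of at least 1 Mb the shares were 1.59% and 1.68%, the density ratios 0.772 and 0.861, the genes 39, 44 and 38 in both, the overlapping control peaks 6 and the peaks of at least 20-fold 3. With any listed transcript in place of the first, the induced share was 5.24%. Without pseudogene peaks, 3 peaks of at least 20-fold remained, and at 10-fold there were 371. Overlapping control peaks numbered 15 with equal numbers of top peaks, 11 with overlap of 50% of both peaks and 10 with centres within 200 bp. Counting all peaks by position, chosen after seeing the data, took the density ratios to 0.606 and 0.614. Where the construction does not show it, the cause was not tested. Across these settings, apart from those added after seeing the data, 53 other values moved by less than their counting interval or, for counts, less than 1.5 times, as did all 11 without chromosomes X and Y, also chosen after seeing the data. Most peaks held few tags, so single peaks are the least certain values here.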

Other observations

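By chromosome, the induced density of intron peaks in long genes was highest on chromosome 13, at 12.3 per Mb, and lowest among the autosomes on chromosome 11, at 4.30 per Mb. In the control list the same chromosomes stood at 6.07 and 3.94 per Mb, and the highest control value was 6.26 per Mb on chromosome 3. These are values of single libraries, and they count peaks by the authors' assignment and not by position. On chromosome 11, Sgcd held 0 assigned induced intron peaks and 15 induced peaks by position. Sgcd was chosen after its values were seen.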
